A study of Homo sapiens with 6 samples.

Results

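The 9 genes studied here belong to the machinery that shows peptides to T cells, and they were followed in MM.1S, a human multiple myeloma line, after selection for resistance to lenalidomide. They were taken by name as HLA-B, HLA-C, B2M, NLRC5, CIITA, CD74, CTSS, ERAP1 and TAPBP, and all 9 had a row among the 12760 genes of the expression table. The LenR group (n = 3 libraries) was kept under lenalidomide from 10 nM upward, with the dose multiplied by 10 every month for 3 months. The WT group (n = 3) was grown over the same time with DMSO, the solvent. Both groups are labelled with a WT genotype, and whether drug was present when the RNA was taken is not given in the sources used here. The labels call the replicates biological and do not say if each came from its own round of selection, so a p-value here reflects the spread between the samples alone, and that spread may be technical.

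MHC class I molecules pair a heavy chain, such as the products of HLA-B and HLA-C, with beta-2-microglobulin and carry peptides of the cell's own proteins to CD8 T cells. Peptides are pumped into the endoplasmic reticulum by TAP1 and TAP2, trimmed by ERAP1 and fitted with the help of tapasin, the product of TAPBP. Class II molecules show peptides from endosomes to CD4 T cells. Their chaperone, the invariant chain CD74, is removed by proteases of which cathepsin S, encoded by CTSS, makes the last cuts. NLRC5 switches on the class I genes and CIITA the class II genes. In plasma cells, CIITA is normally turned down by PRDM1 (Blimp-1). Lenalidomide, which redirects the cereblon ubiquitin ligase, is used against tumours of these cells.

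Summed over the genes of the table, the 6 libraries held between 14500140 and 17387914 reads. These were worked out from steps in the deposited FPKM (fragments per gene length in kilobases, scaled to library size). WT replicate 3 and LenR replicate 2 stood apart from the other libraries on the second principal component, which held 26.8% of the variance, against 58.1% on the first, which separated LenR from WT. WT replicates 1 and 2 were the closest pair (the median chi-square over genes was 1.17 times that expected from sampling, against 3.89 for the next pair), but they differed by more than sampling noise and were kept as 2 samples. Of 10 plasma cell markers, 9 had values and 5 rose in LenR, with summed levels of 4617 to 5550 FPKM in LenR and 3918 to 4534 FPKM in WT. Of 9 B cell markers, 3 had values (CD79B, BACH2 and CR2), with sums of 30.5 to 33.1 FPKM in LenR and 33.4 to 36.3 FPKM in WT. CD79B was the one that passed, and it fell. Of 10 myeloid and dendritic markers, CD68 and CLEC9A had values, with sums of 20.4 to 22.2 FPKM in LenR and 14.9 to 18.2 FPKM in WT, and CLEC9A rose. The sums were 3.07 to 3.87 FPKM in LenR and 3.71 to 4.11 FPKM in WT for T and NK cell markers, and 0.600 to 0.849 FPKM in LenR and 0.465 to 0.637 FPKM in WT for epithelial and stromal markers. The remaining markers, among them MS4A1, PAX5, CD14, LYZ, CD3D and EPCAM, had no values here. The part of these shifts in the results was not tested. In bulk RNA, fewer cells that express a gene and less RNA per cell cannot be told apart.

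Class I genes, B2M and class II genes share promoter boxes through which NLRC5 and CIITA act, so the 250 bases before the start site are shown for 5 members. RefSeq promoters (GRCh38.p14) matched 6 of the 9 members, ERAP1 with a pair of start sites that are not printed. Capitals mark CCAAT (core of the Y box, bound by NF-Y), TGACG (core of the X2 box) and AANNGAAA (the element read by interferon regulatory factors), each searched on both strands. The motifs were picked with these sequences known. They are reference sequence, not the alleles of MM.1S. HLA-B lies at chr6:31357180-31357429 and HLA-C at chr6:31272093-31272342, both on the minus strand. B2M lies at chr15:44711267-44711516 on the plus strand, CD74 at chr5:150412911-150413160 and TAPBP at chr6:33314079-33314328, both on the minus strand.
HLA-B: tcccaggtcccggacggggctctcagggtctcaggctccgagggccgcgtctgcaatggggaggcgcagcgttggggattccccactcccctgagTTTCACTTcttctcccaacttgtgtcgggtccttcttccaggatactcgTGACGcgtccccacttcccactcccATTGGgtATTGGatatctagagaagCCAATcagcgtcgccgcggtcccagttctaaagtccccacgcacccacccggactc
HLA-C: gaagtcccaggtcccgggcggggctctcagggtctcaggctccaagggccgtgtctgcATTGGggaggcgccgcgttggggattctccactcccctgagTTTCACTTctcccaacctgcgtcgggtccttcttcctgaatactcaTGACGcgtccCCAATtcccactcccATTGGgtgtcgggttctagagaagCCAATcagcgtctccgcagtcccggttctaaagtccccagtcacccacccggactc
B2M: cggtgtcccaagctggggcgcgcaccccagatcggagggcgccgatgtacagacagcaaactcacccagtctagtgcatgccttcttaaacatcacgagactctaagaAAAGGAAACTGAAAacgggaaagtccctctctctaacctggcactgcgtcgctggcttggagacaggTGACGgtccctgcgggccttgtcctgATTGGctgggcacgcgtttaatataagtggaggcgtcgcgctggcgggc
CD74: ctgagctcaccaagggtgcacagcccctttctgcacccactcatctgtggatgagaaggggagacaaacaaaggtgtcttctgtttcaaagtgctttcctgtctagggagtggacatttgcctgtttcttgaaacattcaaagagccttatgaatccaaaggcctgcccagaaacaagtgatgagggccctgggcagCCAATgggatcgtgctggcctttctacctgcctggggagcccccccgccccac
TAPBP: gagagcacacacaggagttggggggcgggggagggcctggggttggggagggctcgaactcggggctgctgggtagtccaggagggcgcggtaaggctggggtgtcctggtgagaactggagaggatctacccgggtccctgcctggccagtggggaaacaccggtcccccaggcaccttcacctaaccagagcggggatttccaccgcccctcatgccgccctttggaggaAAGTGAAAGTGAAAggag
HLA-B, HLA-C and B2M held all 3 motifs, with AANNGAAA followed by TGACG and then a CCAAT core, in either orientation, nearest the start site. HLA-C had a further CCAAT core upstream of its AANNGAAA match. HLA-B and HLA-C were 89% identical over 254 aligned columns, whereas B2M was 49.5% identical to HLA-B. CD74 held a CCAAT core alone, and TAPBP held AANNGAAA in 2 copies that overlap each other, as do the 2 copies of B2M. Over 35116 RefSeq promoters of this length, 32% held CCAAT, 21.2% TGACG, 20.3% AANNGAAA and 1.19% all 3. A match is a description of letters and shows no binding.

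The question of the main comparison was which of these genes differed between LenR and WT. HLA-B, NLRC5 and CD74 fell in LenR, to between 0.609 and 0.641 of their mean WT levels, and CTSS rose to 1.44 times its WT mean. HLA-C, B2M, CIITA, ERAP1 and TAPBP did not pass the test, so 4 of the 9 members were called, against a background of 15.1% of the 11276 genes tested (6.57% lower and 8.57% higher). A call is an adjusted p under 0.05 by limma on log2(FPKM + 1), and all 9 members passed the filter of a mean of at least 1 FPKM. In 6 of the 9 the LenR and WT values did not overlap, against 34.5% of genes tested. The median log2 fold change was −0.24 over the members and −0.002 over all genes tested. The members were chosen with earlier results of these data known, so these shares and medians are a description and no test.

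**Figure D1:**
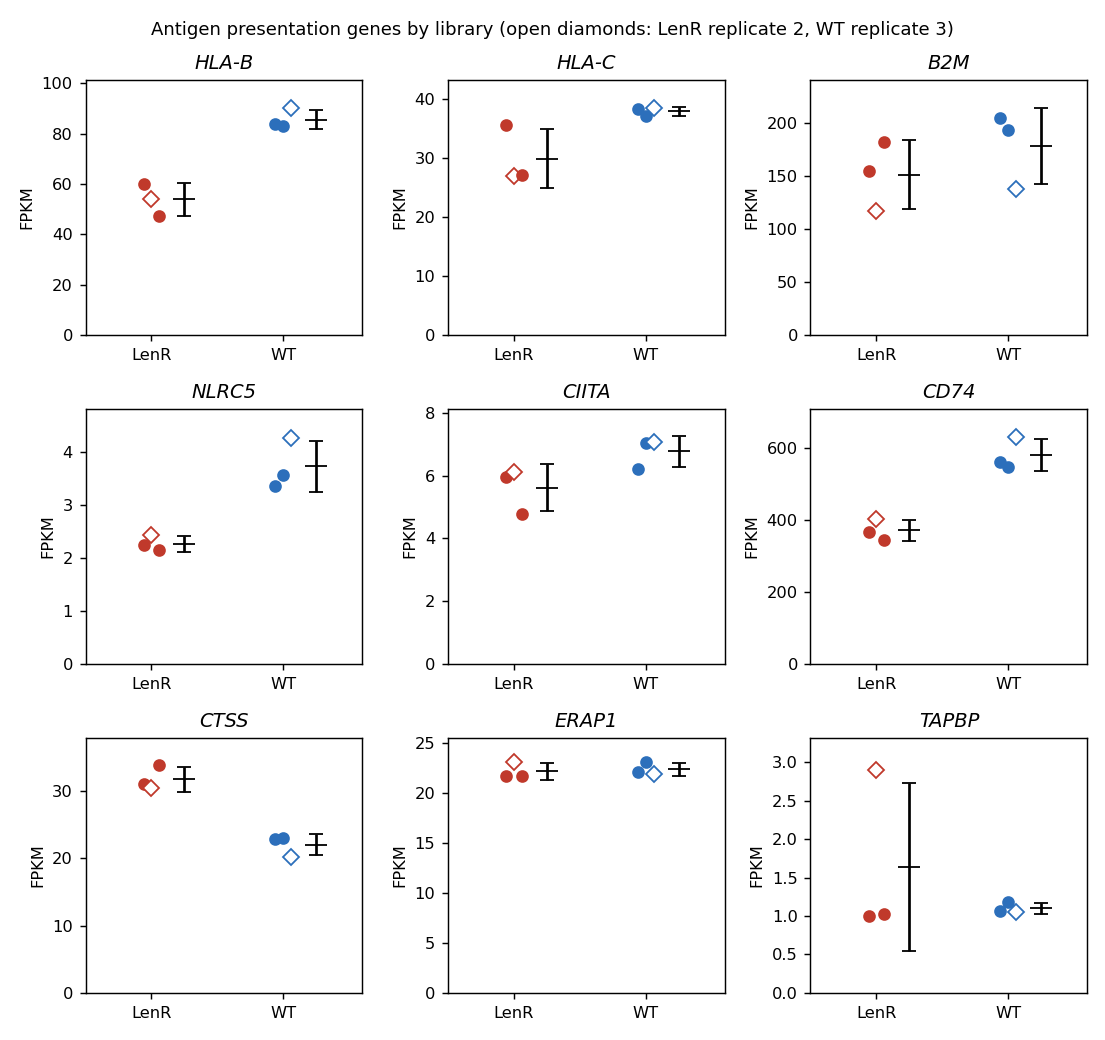
FPKM of the 9 members in each library, LenR left and WT right, with the mean and SD (n = 3 per group) beside the points. Open diamonds are LenR replicate 2 and WT replicate 3: LenR values of HLA-B, NLRC5 and CD74 lie below all WT values, those of CTSS above, and TAPBP is high in LenR replicate 2 alone.

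HLA-B (chromosome 6, 31353875 to 31357179, GRCh38) encodes a classical class I heavy chain. It had 60.0, 54.2 and 47.3 FPKM in LenR replicates 1 to 3, against 83.8, 82.9 and 90.0 FPKM in WT replicates 1 to 3. Every LenR value was below every WT value. The mean was 53.8 ± 6.36 FPKM in LenR and 85.6 ± 3.87 FPKM in WT (SD, n = 3 each). The difference was −0.66 on the log2 scale, with an SE of 0.0967 (limma adjusted p = 0.00299). HLA-C, the neighbouring heavy chain gene (31268749 to 31272092), had 35.6, 27.0 and 27.1 FPKM in LenR replicates 1 to 3 and 38.2, 37.1 and 38.4 FPKM in WT replicates 1 to 3. The groups did not overlap, but LenR replicate 1 lay close to WT, and HLA-C did not pass (log2 fold change −0.34, 95% interval −0.60 to −0.09 before adjustment, adjusted p = 0.0782). It passed without LenR replicate 1 (−0.47, limma adjusted p = 0.00956), the LenR library nearest to WT, whose omission enlarges the difference. It also passed with a covariate for the libraries that stood apart (limma adjusted p = 0.0375). That covariate was chosen from these same libraries, and with it 3163 genes were called over the whole table in place of 1707. LenR replicate 1 was the highest of the LenR libraries for both heavy chains. HLA-B and HLA-C resemble each other in sequence, so reads may have been divided between them, and how such reads were counted is not given in the sources used here.

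B2M (chromosome 15, 44711517 to 44718145) encodes the light chain that every class I molecule needs. It had 154, 117 and 182 FPKM in LenR replicates 1 to 3 and 204, 193 and 138 FPKM in WT replicates 1 to 3. LenR replicate 2 and WT replicate 3, the libraries that stood apart, were each the lowest of their group, and the groups overlapped. The difference did not pass (log2 fold change −0.24, 95% interval −0.69 to 0.21, adjusted p = 0.486). Without both of these libraries it was also −0.24 (limma adjusted p = 0.121), and with a term for them it passed (limma adjusted p = 0.0342). That term is the covariate chosen from these same libraries. The size of the B2M difference turned on single libraries: it was −0.07 without LenR replicate 2, −0.38 without LenR replicate 3, −0.13 without WT replicate 1 and −0.41 without WT replicate 3. Among these 3 class I chain genes, HLA-B alone passed and all 3 lay below 0 (median −0.34).

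NLRC5 (chromosome 16, 56989557 to 57083520) is the transactivator of class I genes. It had 2.24, 2.44 and 2.14 FPKM in LenR replicates 1 to 3, against 3.37, 3.56 and 4.27 FPKM in WT replicates 1 to 3. No LenR library reached the lowest WT library, and WT replicate 3 was the highest. The mean was 2.27 ± 0.152 FPKM in LenR and 3.73 ± 0.478 FPKM in WT, or −0.53 on the log2(FPKM + 1) scale with an SE of 0.0879 (adjusted p = 0.00558). The added 1 in log2(FPKM + 1) shrinks changes at this low level, and voom on the recovered reads of all genes gave −0.70 (adjusted p = 0.00238). CIITA (chromosome 16, 10866206 to 10943021), the class II transactivator, had 5.96, 6.13 and 4.77 FPKM in LenR replicates 1 to 3 and 6.21, 7.05 and 7.07 FPKM in WT replicates 1 to 3. The highest LenR value lay just under the lowest WT value, and CIITA did not pass (−0.24, 95% interval −0.46 to −0.01 before adjustment, adjusted p = 0.155). Without LenR replicate 3, the lowest library for CIITA, the difference was −0.14 (adjusted p = 0.296). In GENCODE 29, 2416 exonic bases of CIITA overlap DEXI on the opposite strand and 2378 overlap AC133065.3 on the same strand. On the opposite strand, 299 exonic bases of ERAP1 overlap CAST and 542 of HLA-B overlap the pseudogene AL671883.2. HLA-B and HLA-C share 35 exonic bases on the same strand, as the HLA-B gene model there reaches into HLA-C. The strand setting is not given, so reads from the opposite-strand stretches cannot be told apart. A strand setting would not separate reads of CIITA and AC133065.3, or of HLA-B and HLA-C over their shared bases. CIITA was counted over 4703 bases against 20757 in the annotation, so its overlapping stretches may not all have been counted.

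Of 15 transcription factors and other regulators of MHC genes tested, NLRC5 fell and NFYB and PRDM1 rose, and 12 were not called (median −0.01). The background was 15.1% of all genes tested, 6.57% called lower and 8.57% higher. NFYB, a subunit of the NF-Y factor that binds the CCAAT core, averaged 18.0 ± 1.39 FPKM in LenR and 10.8 ± 1.11 FPKM in WT (log2 fold change 0.69, adjusted p = 0.00188). PRDM1, which encodes the plasma cell repressor of CIITA, averaged 124 ± 12.9 FPKM in LenR and 88.3 ± 7.81 FPKM in WT (0.49, adjusted p = 0.0155). PRDM1 no longer passed when WT replicate 1 was left out (0.45, adjusted p = 0.0769), when WT replicate 2 was left out (0.46, adjusted p = 0.0723) or when they were averaged (0.45, adjusted p = 0.0750), with a difference of similar size each time. RFX5, which binds the X box of class I and class II promoters, had means of 51.9 FPKM in LenR and 50.3 FPKM in WT (0.04, adjusted p = 0.708). EZH2, a histone methyltransferase that can silence MHC genes, had means of 53.4 FPKM in LenR and 60.2 FPKM in WT (−0.17, adjusted p = 0.138). Of the genes that carry interferon signals, the factor STAT2 (0.16, adjusted p = 0.155) and the kinase JAK1 (−0.17, adjusted p = 0.204) did not pass.

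TAPBP (chromosome 6, 33299694 to 33314078) encodes tapasin, which holds empty class I molecules beside the peptide transporter. It had 0.996, 2.90 and 1.02 FPKM in LenR replicates 1 to 3 and 1.06, 1.18 and 1.06 FPKM in WT replicates 1 to 3. LenR replicate 2 was 2.45 times the highest of the other 5 libraries, and without it the groups were close. In reads these were 296, 939 and 366 in LenR replicates 1 to 3 and 381, 401 and 315 in WT replicates 1 to 3. The log2 fold change of 0.26 (95% interval −0.30 to 0.81, adjusted p = 0.544) turned to −0.06 without LenR replicate 2. Only 3 of the 11276 genes tested were at least 2 times higher in LenR replicate 2 than in every other library, and TAPBP had the highest such ratio. In the other libraries between 0 and 4 genes met this limit.

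ERAP1 (chromosome 5, 96760813 to 96935854), the aminopeptidase that trims peptides to class I length, had 21.7, 23.2 and 21.7 FPKM in LenR replicates 1 to 3 and 22.1, 23.1 and 21.9 FPKM in WT replicates 1 to 3. The groups overlapped almost fully, with a log2 fold change of −0.01 and a 95% interval of −0.16 to 0.13 (adjusted p = 0.927). None of the 9 peptide loading and trimming genes tested passed by limma (median −0.01), and none by voom on the recovered reads, and 1, TAPBPL, was at an unadjusted p under 0.05 (−0.22, limma adjusted p = 0.0883). The loading chaperones CALR (0.07, adjusted p = 0.626) and CANX (−0.05, adjusted p = 0.724) were among them. None of the 4 immunoproteasome and proteasome activator genes tested passed by limma or voom (median −0.03, 0 genes at an unadjusted p under 0.05), with PSME2 at −0.11 and PSMB10 at −0.02. PSMB8 and PSMB9, which encode catalytic immunoproteasome subunits, had no values here. The class I-like gene MR1 had means of 8.17 FPKM in LenR and 8.11 FPKM in WT (0.01, adjusted p = 0.943).

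**Figure D2:**
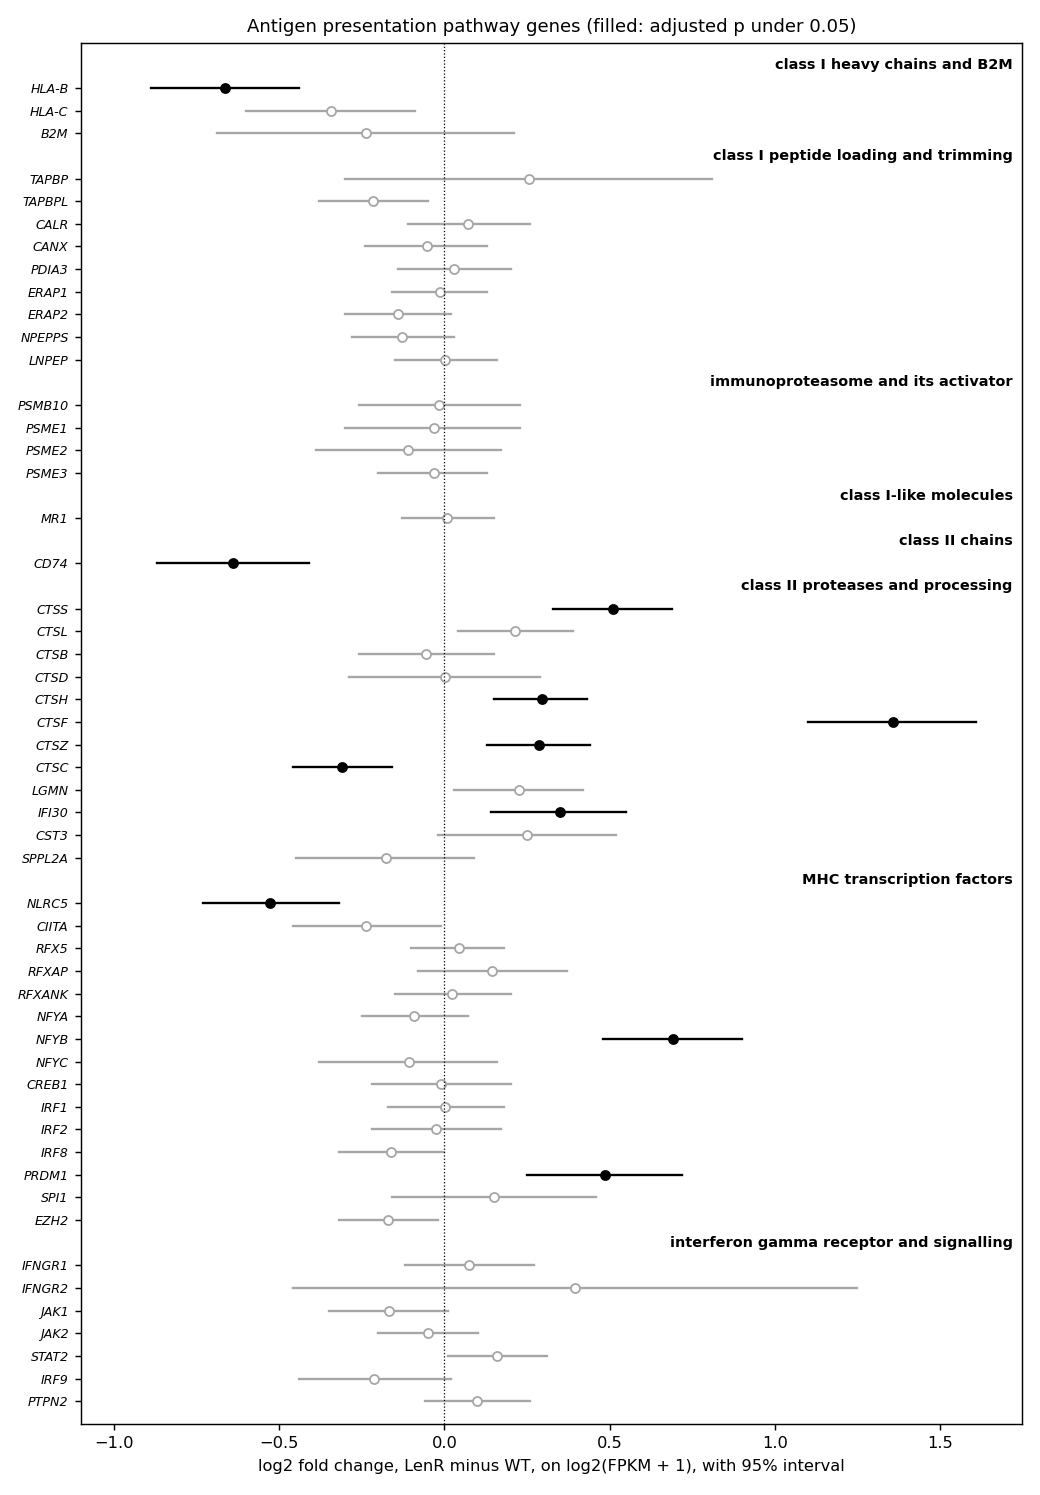
Log2 fold change, LenR minus WT, of the 52 pathway genes tested, with unadjusted 95% intervals, by gene list. Filled black points passed the adjusted p threshold of 0.05: 7 lie to the right of 0, 5 of them class II proteases and processing genes, and 4 to the left, and CTSF is farthest from 0.

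CD74 (chromosome 5, 150401639 to 150412910) encodes the invariant chain, which fills the groove of new class II molecules and steers them to endosomes. It had 366, 403 and 345 FPKM in LenR replicates 1 to 3, against 561, 548 and 631 FPKM in WT replicates 1 to 3. All LenR libraries were lower, by more than the spread within either group. The mean was 371 ± 29.1 FPKM in LenR and 579.8 ± 44.5 FPKM in WT, which is −0.64 on the log2 scale (SE 0.0996) with an adjusted p of 0.00401. The genes around CD74 were also low. Of the 36 tested genes whose leftmost base in GENCODE 29 lies within 5 Mb of that of CD74, 31 lay below 0 and 25 were called lower, their median was −0.62 on the log2 scale, and 17 lay lower than CD74 itself. HLA-B was lower than all of its 70 tested neighbours (median 0.04), and NLRC5 was lower than 37 of 38 (median −0.07). Genes with a mean under 1 FPKM are not among these neighbours. By voom on the recovered reads of all genes, TAP2 (−0.96), HLA-DRA (−0.79) and TAP1 (−0.73), all within 5 Mb, lay lower than HLA-B (−0.67). The other pathway genes of that region under 1 FPKM lay higher than HLA-B, and HLA-DOB rose (0.98). NFYB on chromosome 12 was higher than 43 of 48 neighbours, which had a median of 0.35 and 30 genes called higher.

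**Figure D3:**
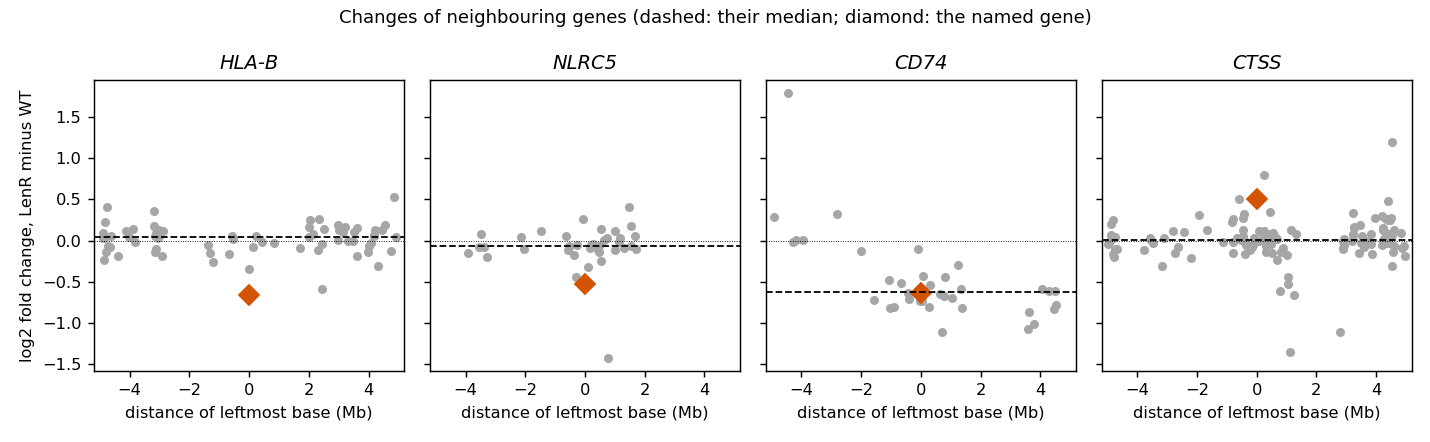
Log2 fold change, LenR minus WT, of tested genes within 5 Mb of HLA-B, NLRC5, CD74 and CTSS, against the distance in Mb between the leftmost bases of the gene models on the chromosome. The dashed median of the neighbours passes close to the diamond of CD74 (CD74 at −0.64, median −0.62) and lies near 0 for the other 3 genes.

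CTSS (chromosome 1, 150730188 to 150765778), the endosomal protease that frees class II molecules of the invariant chain, moved the opposite way to CD74. It had 31.0, 30.4 and 33.8 FPKM in LenR replicates 1 to 3, against 22.8, 23.0 and 20.2 FPKM in WT replicates 1 to 3. All LenR libraries exceeded all WT libraries. The mean was 31.7 ± 1.82 FPKM in LenR and 22.0 ± 1.56 FPKM in WT, which is 0.51 on the log2 scale (SE 0.0780) with an adjusted p of 0.00376. CTSS was higher than 120 of its 122 neighbours within 5 Mb (median 0.01).

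Of 12 endosomal proteases and processing genes tested, CTSS, CTSF, CTSH, CTSZ and IFI30 rose, CTSC fell and 6 were not called (median log2 fold change 0.24), where 8.57% of all genes tested were called higher and 6.57% lower. The 6 calls came down to 2 with WT replicates 1 and 2 averaged, and to 2 without WT replicate 1, without WT replicate 2 or without LenR replicate 1. CTSF, which encodes cathepsin F, a protease that can also cut the invariant chain, had 4.71, 4.76 and 4.63 FPKM in LenR replicates 1 to 3 and 0.991, 1.65 and 1.09 FPKM in WT replicates 1 to 3. The mean in LenR was 3.78 times that in WT, or 1.36 on the log2(FPKM + 1) scale with an SE of 0.109 (adjusted p = 0.000228), and 1.95 by voom. IFI30, the thiol reductase that opens disulfide bonds of antigens, averaged 66.5 ± 6.85 FPKM in LenR and 51.9 ± 1.08 FPKM in WT (0.35, adjusted p = 0.0345). On the same strand, 997 exonic bases of IFI30 overlap the gene model AC007192.1 in GENCODE 29, against a counted length of 1028 bases, so the source of its reads is uncertain. CTSH had means of 9.80 FPKM in LenR and 7.80 FPKM in WT (0.29, adjusted p = 0.0149), and CTSZ of 30.4 FPKM in LenR and 24.7 FPKM in WT (0.29, adjusted p = 0.0277). CTSC, which encodes cathepsin C, an activator of granule proteases, had means of 13.4 FPKM in LenR and 16.8 FPKM in WT (−0.31, adjusted p = 0.0162). The calls of CTSH and CTSC each ended in 3 of the 6 fits with 1 library left out, the same 3 omissions as for the list (highest adjusted p 0.0708 and 0.0900). The calls of IFI30 and CTSZ each ended in 5 of the 6, holding without LenR replicate 2 for IFI30 and without LenR replicate 3 for CTSZ (highest adjusted p 0.132 and 0.121). Over these fits the log2 fold changes kept to 0.27 to 0.32 for CTSH, −0.35 to −0.28 for CTSC, 0.30 to 0.44 for IFI30 and 0.25 to 0.33 for CTSZ. The abundant lysosomal proteases CTSD (0.00) and CTSB (−0.06, adjusted p = 0.744) did not pass. CTSD shares 1304 exonic bases with AC068580.4 on the same strand, against a counted length of 2123 bases, so the source of its reads is also uncertain.

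FPKM levels in the MHC region cannot be set against those of other genes. The gene lengths behind the deposited values were more than 2 times the exonic length in GENCODE 29 for 55 of 57 genes between HLA-F and TAPBP (median ratio 4.76), against 0.970% of 11953 other genes (median ratio 0.725). HLA-B was counted over 9432 bases against 3051 in the annotation, and TAPBP over 20421 against 5056. Of these 57 genes, 41 (71.9%) had a mean under 1 FPKM and were left out of the test, against 10.9% elsewhere. Comparisons of LenR with WT within a gene use the same length on both sides.

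The 8 pathway genes of this region with a mean under 1 FPKM were compared in RPM (recovered reads scaled to a common library size). Voom was run on all 12760 genes with no filter, an alternative chosen after seeing the data, as were the genes named here. RPM leaves out the gene length, but how reads shared between genes were counted is not given in the sources used here. These values therefore describe the counted reads alone, and the cause of the low counts in this region was not tested. This fit called 17.0% of genes (7.30% lower and 9.75% higher), and of the 8 genes TAP1, TAP2 and HLA-DRA fell, HLA-DOB rose, and HLA-E, HLA-F, HLA-DRB1 and HLA-DPB1 were not called. TAP2, a subunit of the class I peptide transporter, had 17.1, 17.3 and 17.1 RPM in LenR replicates 1 to 3, against 31.8, 34.4 and 34.3 RPM in WT replicates 1 to 3 (log2 fold change −0.96, SE 0.0801, voom adjusted p = 0.000114). The LenR libraries lay close together, and all were below every WT library. TAP1, the other subunit, rested on 17, 16 and 17 reads in LenR replicates 1 to 3 and 30, 35 and 22 reads in WT replicates 1 to 3 (−0.73, adjusted p = 0.0472).

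Of 12 class II chain genes, counting CD74, 5 had values, and CD74 alone was above the filter. HLA-DRA, the alpha chain of HLA-DR, had 4.34, 3.50 and 3.84 RPM in LenR replicates 1 to 3, against 7.59, 6.03 and 6.54 RPM in WT replicates 1 to 3 (−0.79, SE 0.149, adjusted p = 0.00655). HLA-DOB, which encodes a chain of the class II regulator HLA-DO, went the other way. It had 6.34, 5.47 and 6.87 RPM in LenR replicates 1 to 3 and 3.28, 3.23 and 2.86 RPM in WT replicates 1 to 3 (0.98, SE 0.149, adjusted p = 0.00199). With limma on log2(FPKM + 1) and no filter, TAP2 (−0.32, adjusted p = 0.00318), HLA-DRA (−0.26, adjusted p = 0.0169) and HLA-DOB (0.34, adjusted p = 0.00463) passed and TAP1 (−0.04, adjusted p = 0.594) did not. TAP2 and HLA-DOB share 2064 and 599 exonic bases with AL669918.1, a readthrough gene model on the same strand in GENCODE 29, so the source of those reads is uncertain. SOCS1, an inhibitor of interferon signalling outside this region that was also under 1 FPKM, had 23, 26 and 28 reads in LenR replicates 1 to 3 and 9, 15 and 11 reads in WT replicates 1 to 3 (1.17, voom adjusted p = 0.00995).

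**Figure D4:**
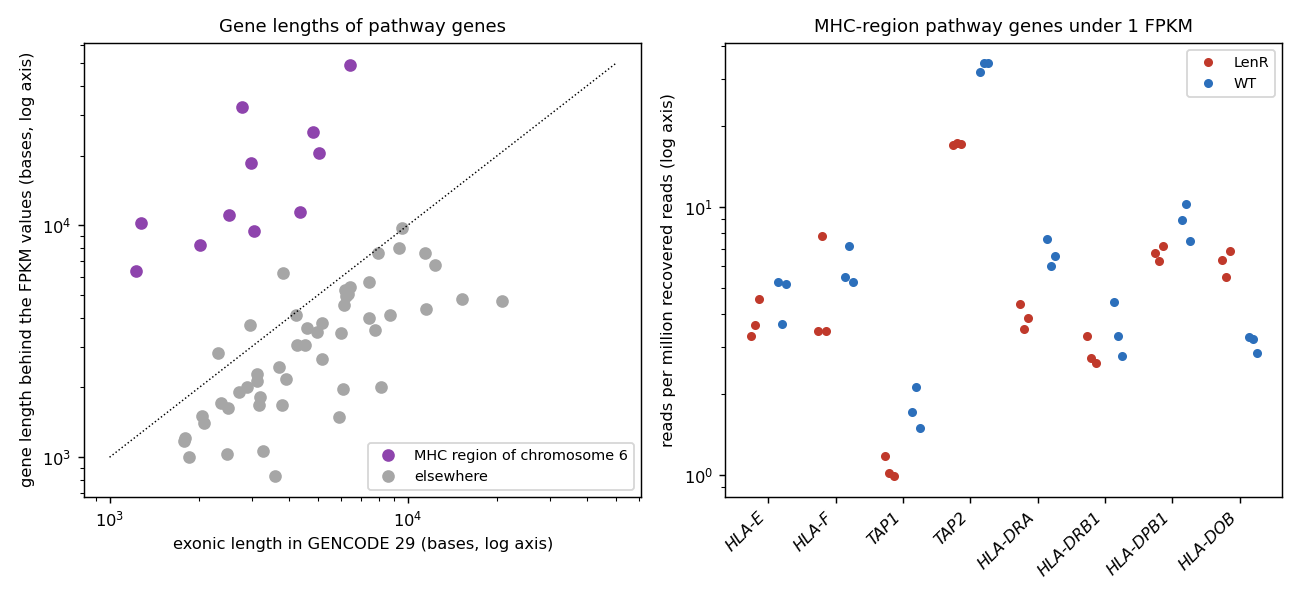
Left, gene length behind the FPKM values against GENCODE 29 exonic length for pathway genes (both log axes, in bases), with the line of equality: genes of the MHC region lie above it. Right, RPM (log axis) of the 8 pathway genes of that region under 1 FPKM, 3 libraries per group, LenR left of WT. LenR values of TAP2, TAP1, HLA-DRA and HLA-DPB1 (not called) lie below all WT values and those of HLA-DOB above.

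The genes nearest in profile to the 4 called members were found from the root mean square difference between values of log2(FPKM + 1), each gene centred on its own mean over the 6 libraries. By this selection itself, their log2 fold changes lie near that of the member. For HLA-B these were KCNN4 (difference 0.0312), BRAT1 (0.0417) and FBXL18 (0.0423), with log2 fold changes of −0.66, −0.66 and −0.62. For NLRC5 they were GNA12 (0.0151), HJURP (0.0393) and TCN2 (0.0394), with log2 fold changes between −0.56 and −0.52. CD74 was nearest to LARP1 (0.0274) and TNIP1 (0.0296), both also on chromosome 5, and to IGFBP3 (0.0322) on chromosome 7. BRAT1, FBXL18 and GNA12 also lie on chromosome 7, whereas KCNN4, HJURP and TCN2 lie on chromosomes 19, 2 and 22. The genes nearest to CTSS were IL6ST (0.0293), SLC16A9 (0.0301) and RND3 (0.0344), with log2 fold changes of 0.52, 0.46 and 0.55. None of these 12 genes belongs to the lists of antigen presentation genes used here.

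Over the 75 genes reported from the 8 pathway lists, 61 had values and 52 were tested, of which 7 rose, 4 fell and 41 were not called. Among the 43 tested genes other than the members, 6 were called higher and 1 lower, and their median was 0.00 on the log2 scale. Over all 11276 genes tested, 15.1% were called, 8.57% higher and 6.57% lower. Members and lists alike were chosen with earlier results of these data known. The calls of HLA-B, NLRC5, CD74 and CTSS held in every fit with 1 library left out and without WT replicate 3 and LenR replicate 2 together, where the log2 fold changes were −0.64, −0.48, −0.64 and 0.48.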

How the data were processed

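The authors deposited FPKM values for 12760 genes, 1 column per library, and no column was left unused. Per the submitters' processing notes, the build was hg38 and the tools were edgeR 3.40.2, featureCounts 2.0.3, HISAT2 2.2.1 and FastQC 0.11.9, with no roles stated. Neither the annotation nor the strand setting is given in the sources used here, nor is the expression filter. The FPKM of a gene were whole multiples of a step, which gave whole reads (within 0.03) and gene lengths for all 12760 genes.

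The test was limma 3.58.1 (R 4.3.3; trended empirical Bayes, 3.75 prior degrees of freedom, two-sided) on log2(FPKM + 1), with group as the only term, over 11276 genes whose mean reached 1 FPKM. P-values were adjusted by Benjamini-Hochberg over these genes. Positions came from RefSeq (GRCh38.p14), and exonic lengths, overlaps and neighbours within 5 Mb from GENCODE 29 (GRCh38). The scripts were tested on simulated data. Figures used Python 3.11.15 and matplotlib 3.10.9.

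The members and the 8 pathway and 5 marker lists were chosen with earlier results of these data known. Some list genes are not reported here and are left out of the list counts and the plots of list genes. Named genes were the members, every called list gene, the 2 most abundant uncalled genes of each list, and the 3 nearest profiles of each called member; others were named after their values were seen. The effect of 20 other settings, and of 1 added later (voom on the recovered reads of all genes), is given in the closing section. The added setting was chosen after seeing the results. Settings that left out WT replicate 3 and LenR replicate 2 together, gave them a term, or averaged WT replicates 1 and 2 were chosen from how these libraries lay in the data.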

Additional observations from a re-analysis of the deposited data

How the results depend on the processing

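The direction and call of HLA-B, NLRC5, CD74 and CTSS held under all alternatives that could be computed (a minimum mean of 5 FPKM left no value for NLRC5 and TAPBP). In all, 1707 genes were called; the count was 907 with the replicate number as a block, 1075 with a minimum mean of 5 FPKM, 1052 with WT replicates 1 and 2 averaged, 3163 with a covariate that set LenR replicate 2 and WT replicate 3 apart, and 1007 to 1562 with 1 library left out. Of the pathway genes 11 were called; the count was 6 with the replicate number as a block, which ended the calls of CTSH, CTSZ, CTSC, IFI30 and PRDM1 (2 in place of 6 endosomal protease and processing genes called), 7 with WT replicates 1 and 2 averaged, 19 with that covariate, and 7 (without WT replicate 1) to 10 with 1 library left out. The replicate block changed no call of a member. The labels do not pair the numbers: deviations of same-numbered libraries correlated at 0.02, −0.56 and −0.68, and 0 of 6 libraries was closest to its own number. With 1 library left out, the log2 fold change of ERAP1 ranged from −0.04 to 0.01, that of B2M from −0.41 to −0.07, that of CIITA from −0.29 to −0.14 and that of TAPBP from −0.06 to 0.42, and TAPBP was at −0.08 without WT replicate 3 and LenR replicate 2 together. The cause of these changes was not tested. Some alternatives also leave a smaller number of samples or genes. The 3 libraries per group, with WT replicates 1 and 2 close together, limit the precision of every interval.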
